A study of Mus musculus with 2 samples.

Results

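H3K36me2 peaks were described at 59 cytokine, cytokine receptor, Toll-like receptor (TLR), NF-kB, JAK and STAT genes in mouse colon. The genes were chosen by name, and the peaks were those that the authors' nearest-gene annotation assigned to 1 of these symbols. The peak lists named 18187 genes in all. Of the 19976 peaks of the *Nsd2* fl/fl library, 39 belonged to the 59 genes, as did 45 of the 23518 peaks of the *Nsd2* ΔIE library. Of the 59 genes, 31 had a peak in at least 1 library and 28 had none.

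Both libraries came from colon tissue of mice fed HFCD, a high-fat cholesterol diet. In the *Nsd2* fl/fl mouse (labelled NSD2fl/fl) the *Nsd2* alleles are flanked by loxP sites. In the *Nsd2* ΔIE mouse (labelled NSD2ΔIE) they are deleted by Villin-Cre, which is active in the intestinal epithelium, so the other cells of the tissue keep the gene. The methods describe male littermates on a C57BL/6J background that began the diet as young adults, and the number of mice behind a library is not given in the sources used here. The design text states 16 weeks of diet, and the study's methods state a longer time. The libraries were made by CUT&Tag, in which an antibody against H3K36me2 directs a Tn5 transposase to cut the nearby DNA. There was 1 library per genotype, so no difference between them could be tested or set against replicate error. Their sequencing depth is unknown. The libraries are called fl/fl and ΔIE below.

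Dimethylation of lysine 36 of histone H3 is written by NSD2 and its relatives NSD1 and NSD3, lies over gene bodies and intergenic chromatin, and opposes the repressive mark H3K27me3. Cytokines and microbial products act through 2 connected systems in the colon. Most TLRs and the IL-1 receptor pass their signal through MYD88, IRAK kinases and TRAF6 to NF-kB, which is held in the cytoplasm by its inhibitor IkBα. Many other cytokine receptors, such as those for IL-6, IL-10, IL-12 and the interferons, use JAK kinases, which phosphorylate STAT transcription factors, and SOCS proteins end that signal.

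The promoters of 5 of the genes are shown because the results below turn on where the peaks lie relative to them. Each is the 250 bases before the start site on the gene's own strand, read from RefSeq promoters of GRCm38.p6. Capitals mark matches to the NF-kB consensus in *Cxcl1*, *Nfkbia* and *Il6*, and to the STAT site TTCNNNGAA in *Tnfrsf1a*. *Tlr9* held neither motif and is printed without capitals. The *Cxcl1* promoter lies at chr5:90890995-90891244 (plus strand), that of *Nfkbia* at chr12:55492648-55492897 (minus strand), that of *Tlr9* at chr9:106222348-106222597 (plus strand), that of *Tnfrsf1a* at chr6:125349473-125349722 (plus strand) and that of *Il6* at chr5:30012864-30013113 (plus strand). The peak lists use another, unnamed mouse build, so these coordinates cannot be set against those of the peaks given below.
Cxcl1: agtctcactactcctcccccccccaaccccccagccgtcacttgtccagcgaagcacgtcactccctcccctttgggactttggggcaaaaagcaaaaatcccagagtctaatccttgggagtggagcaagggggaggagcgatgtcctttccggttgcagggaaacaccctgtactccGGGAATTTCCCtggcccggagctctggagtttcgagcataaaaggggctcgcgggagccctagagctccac
Nfkbia: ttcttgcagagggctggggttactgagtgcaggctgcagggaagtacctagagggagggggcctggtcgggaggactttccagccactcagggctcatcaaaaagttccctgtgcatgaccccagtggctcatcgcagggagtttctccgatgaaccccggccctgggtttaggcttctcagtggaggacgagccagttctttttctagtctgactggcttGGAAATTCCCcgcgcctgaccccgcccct
Tlr9: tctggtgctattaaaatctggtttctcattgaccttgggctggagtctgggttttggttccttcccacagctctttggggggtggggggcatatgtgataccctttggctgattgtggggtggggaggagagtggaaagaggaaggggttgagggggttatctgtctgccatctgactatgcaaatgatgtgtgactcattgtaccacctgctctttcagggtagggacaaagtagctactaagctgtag
Tnfrsf1a: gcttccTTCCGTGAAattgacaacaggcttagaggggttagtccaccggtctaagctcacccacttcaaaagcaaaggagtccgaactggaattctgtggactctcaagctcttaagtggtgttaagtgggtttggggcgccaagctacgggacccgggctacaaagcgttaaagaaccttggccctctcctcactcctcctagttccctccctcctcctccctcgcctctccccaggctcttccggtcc
Il6: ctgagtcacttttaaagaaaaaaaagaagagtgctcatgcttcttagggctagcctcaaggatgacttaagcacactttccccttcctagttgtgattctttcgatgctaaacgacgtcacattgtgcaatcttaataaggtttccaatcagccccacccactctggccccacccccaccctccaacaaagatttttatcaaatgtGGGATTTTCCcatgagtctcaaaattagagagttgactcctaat

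*Cxcl1*, which encodes a neutrophil-attracting chemokine, had its start site inside a peak of the fl/fl library that reached 1553 bp upstream, so the NF-kB matches at 71 to 61 bases before the start lay under it. In the ΔIE library the nearest peak assigned to *Cxcl1* ended 30596 bp upstream. At *Nfkbia*, which encodes IkBα, the match lay 29 to 20 bases before the start, and the nearest fl/fl peak began 167 bp upstream, leaving the match outside. The *Tlr9* window was covered by the fl/fl peak, while the ΔIE peak began 449 bp after the start. The *Tnfrsf1a* window was covered by an ΔIE peak that reached 2142 bp upstream. For *Il6* the 1 peak assigned to it, in ΔIE, lay 73073 bp upstream. These placements rest on the start site being the same in both builds, and for each of the 5 genes the length of the gene was equal in both.

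The RefSeq table held promoters of 49 of the 59 genes. The NF-kB consensus, searched on both strands, was found in 1480 of 32851 promoters of the table (4.51%) and at 1388 of 27025 genes (5.14%). It was found at 13 of the 49 genes (26.5%): *Cxcl1*, *Cxcl2*, *Il1r1*, *Il2ra*, *Il4ra*, *Il6*, *Nfkb2*, *Nfkbia*, *Nlrp3*, *Stat5a*, *Tlr2*, *Tlr3* and *Tnfaip3*. Of these 13 genes, 8 had an H3K36me2 peak in at least 1 library and 5 had none, beside 31 of all 59 genes (52.5%) with a peak. TTCNNNGAA, which reads the same on both strands, was found at 9.55% of all genes and at 11 of the 49 (22.4%). Of these 11 genes, 7 had a peak and 4 had none. The motifs are matches of letters, and no binding was measured.

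A similar number of the genes had a peak in each library. In the fl/fl library 24 of the 59 genes had a peak (40.7%), beside 30.9% of all 21896 protein-coding genes. In the ΔIE library it was 25 (42.4%), beside 32.9%. Of the 31 genes with a peak, 18 had one in both libraries (58.1%, beside 43.3% of all 18187 genes with a peak), 6 in fl/fl alone (19.4%, beside 25.2%) and 7 in ΔIE alone (22.6%, beside 31.5%). The 18187 genes include many that are not protein-coding, whereas all 59 are, so these shares are not like for like. Of all 21896 protein-coding genes, 4475 (20.4%) had a peak in both libraries. The share of the 59 genes without any peak was 47.5%, and that of protein-coding genes 56.7%. The 28 genes without one included the cytokines *Il1a*, *Il1b*, *Il18*, *Il33*, *Il15*, *Il17a*, *Il22*, *Tnf* and *Ifng*, and the chemokines *Ccl2* and *Cxcl2*. They also included *Il1rn*, which encodes a secreted antagonist of the IL-1 receptor, the receptor genes *Il18r1*, *Il2ra*, *Il6ra*, *Il10ra*, *Il10rb*, *Ifngr1*, *Ifnar1*, *Ccr2*, *Tlr1*, *Tlr3* and *Tlr4*, and the signalling genes *Irak4*, *Nlrp3*, *Tnfaip3*, *Stat3* and *Stat6*. No peak of another gene was labelled as lying in an exon or intron of these 28, but promoter and UTR labels name no gene, so a peak of that kind given to a neighbour would not be seen. A gene without a peak is one where no region passed the caller's limit, which is not the same as absence of the mark.

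The limit differed between the lists. The lowest summed signal of a peak was 21783 in the fl/fl list and 16571 in the ΔIE list. Of the 45 ΔIE peaks at these genes, 29 (64.4%) lay below the lowest fl/fl value, beside 59.1% of all ΔIE peaks. Of the 7 genes with a peak in ΔIE alone, *Il6*, *Il6st*, *Cxcr2* and *Irak2* had only such peaks, while *Il17ra*, *Nfkb2* and *Nfkbia* had stronger ones. Summed signals are not stated to be corrected for depth. With equal numbers of the strongest peaks taken from each list, 24 genes had a peak in fl/fl, 22 in ΔIE and 16 in both.

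The length of genome covered by the peaks of each gene was compared next, counting a log2 ratio (ΔIE over fl/fl) below -0.5 as less, above 0.5 as more, and a peak in 1 library alone as less or more. By this rule 14 of the 31 genes had less covered length in ΔIE (45.2%, beside 43.3% of all genes with a peak), 9 had more (29.0%, beside 39.7%) and 8 were similar (25.8%, beside 16.9%). The share with less was thus near that of all genes. By the number of peaks the order turned, to 9 less and 13 more, as it did over all genes (33.2% and 44.0%). Among the 18 genes with peaks in both libraries, 8 had less, 2 had more and 8 were similar, and the median log2 ratio was -0.40, beside -0.32 over all 7870 such genes. The summed length of the 59 genes was 221907 bp in fl/fl and 156333 bp in ΔIE (log2 ratio -0.51). Over all genes with a peak it was 102992493 bp and 88118230 bp (log2 ratio -0.225), so the whole ΔIE list covered less as well. In bulk tissue, fewer cells that carry the mark and less of the mark per cell cannot be told apart.

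**Figure D1:**
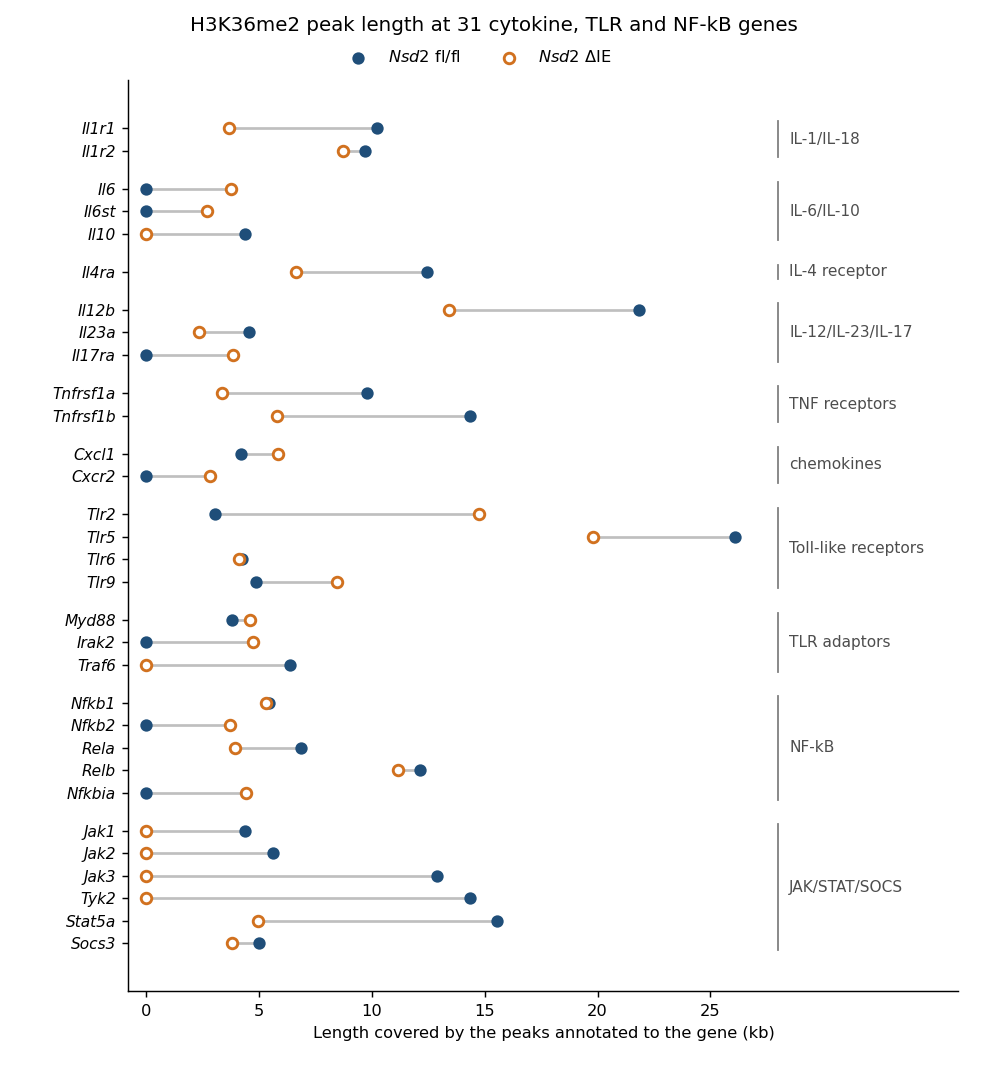
Length of genome in kb covered by the H3K36me2 peaks annotated to each of the 31 genes with a peak, with 1 library per genotype and genes grouped by role. Filled points are fl/fl and open points ΔIE, and a point at 0 is a gene with no peak in that library. The longest lines lie at *Tyk2*, *Jak3*, *Tlr2* and *Stat5a*, and *Jak1*, *Jak2*, *Jak3* and *Tyk2* sit at 0 in ΔIE.

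The IL-1 receptors carried the peaks of the IL-1 and IL-18 genes, with 2 of 8 genes marked in each library. *Il1r1*, the signalling receptor, was covered over 10222 bp by 2 peaks in fl/fl and over 3643 bp by 1 peak in ΔIE (log2 ratio -1.49). The direction rests on the assignment: 1 of the fl/fl peaks, of 5026 bp, lay 7835 bp from the gene, and by gene span the lengths were 5196 bp and 10376 bp. Its intron 4 held a peak in both lists, of which 3636 bp were shared. *Il1r2*, the decoy receptor, was covered over 9673 bp and 8703 bp (log2 ratio -0.15), but its peaks lay in different places, and by gene span the lengths were 10129 bp and 3412 bp (log2 ratio -1.57). The promoter peak assigned to it in ΔIE did not overlap the one in fl/fl, and shared 3336 bp with an fl/fl peak over the start of the gene that was given to Gm16894.

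Of the 7 genes of the IL-6 and IL-10 families, 3 had a peak, each in 1 library alone. *Il6*, an acute-phase cytokine, had no peak in fl/fl and 1 of 3737 bp in ΔIE, in the intergenic region described above. *Il6st*, the gp130 subunit shared by the receptors of the IL-6 family, had no peak in fl/fl and 1 of 2697 bp over its 3′ end in ΔIE. *Il10*, an anti-inflammatory cytokine, had 1 of 4350 bp in fl/fl, 10943 bp past the end of the gene, and none in ΔIE.

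*Il4ra*, the receptor chain for IL-4 and IL-13, was covered over 12420 bp in fl/fl and 6624 bp in ΔIE (log2 ratio -0.91). Its stronger peak, at chr7:125168346-125176478 in fl/fl, ranked 821 by summed signal and shared 6552 bp with the ΔIE peak at rank 681. The fl/fl library had a further peak that began 1 bp from a listed start site. That promoter peak, of 4287 bp, had no counterpart in ΔIE.

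*Il12b*, the p40 subunit of IL-12 and IL-23, had 21842 bp in 5 fl/fl peaks and 13404 bp in 4 ΔIE peaks (log2 ratio -0.70). The fl/fl peaks included intergenic ones and peaks over the gene and its start site, whereas all 4 ΔIE peaks were intergenic. By gene span the lengths of *Il12b* were 10045 bp in fl/fl and 0 bp in ΔIE. *Il23a*, the p19 subunit of IL-23, had 4560 bp in fl/fl and 2322 bp in ΔIE (log2 ratio -0.97). The ΔIE peak covered its start site, and the fl/fl peak lay in exon 13 of 24 of the neighbouring *Stat2*, so by gene span, extended by 3 kb, the direction turned, with 0 bp in fl/fl and 2322 bp in ΔIE. *Il17ra*, the IL-17 receptor, had no assigned peak in fl/fl and 3841 bp in ΔIE.

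Both TNF receptors had less covered length in ΔIE. *Tnfrsf1a*, which encodes the widely expressed TNF receptor, had a 9777-bp peak at chr6:125330732-125340508 in fl/fl, over the gene body and rank 667, and a 3362-bp peak over its start site in ΔIE (log2 ratio -1.54). *Tnfrsf1b*, whose product is most abundant on immune and endothelial cells, had 14353 bp in 3 peaks and 5807 bp in 2 peaks (log2 ratio -1.31), and only 88 bp were shared. *Tnf*, *Ifng*, *Ifngr1* and *Ifnar1* had no peak. Summed over the 6 TNF and interferon genes, 24130 bp in fl/fl stood against 9169 bp in ΔIE.

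Of the 5 chemokine and receptor genes, *Cxcl1* had 4213 bp in fl/fl and 5810 bp in ΔIE (log2 ratio 0.46), the former over the gene and the latter intergenic, so that by gene span it had less in ΔIE. *Cxcr2*, the neutrophil receptor for CXCL1 and CXCL2, had a single 2811-bp peak in ΔIE, which ended 6194 bp upstream of the gene. *Cxcl2*, *Ccl2* and *Ccr2* had none.

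Of the 7 TLR genes, 4 had a peak, each in both libraries, and none passed the limit for less covered length in ΔIE. *Tlr2*, the receptor for bacterial lipoproteins, had 3058 bp in 1 fl/fl peak and 14733 bp in 4 ΔIE peaks (log2 ratio 2.27). None of these lay over the gene. The fl/fl peak lay 18442 bp past its end, and the ΔIE peaks lay 48393 to 88925 bp upstream, 3 of them in exons of *Tmem131l*. *Tlr9*, which senses bacterial DNA, had 4850 bp and 8457 bp (log2 ratio 0.80), and its gene peaks shared 3832 bp. By gene span it was similar, with 4850 bp and 4585 bp. *Tlr5*, the flagellin receptor of the gut epithelium, had 26095 bp in 4 peaks and 19798 bp in 7 peaks (log2 ratio -0.40). Its start site was covered in ΔIE, at rank 2817, and not in fl/fl. *Tlr6*, which pairs with TLR2, had 4215 bp in fl/fl, in an intron of *Fam114a1*, and 4106 bp over the gene in ΔIE.

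Among the TLR adaptors, *Myd88* had 3811 bp in fl/fl and 4575 bp in ΔIE, and 3438 bp were shared. *Irak2*, a kinase of the MYD88 complex, had 2 peaks of 4727 bp together in ΔIE and none in fl/fl. *Traf6*, the ubiquitin ligase downstream of the IRAK kinases, had 2 peaks of 6359 bp together in fl/fl and none in ΔIE. Both *Traf6* peaks lay past the end of the gene, at 2843 and 14439 bp.

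Of the 6 NF-kB genes, 3 had a peak assigned in fl/fl and 5 in ΔIE (24393 bp and 28468 bp). Counted by gene span, as given below, this turned to 5 in fl/fl and 4 in ΔIE (39027 bp and 29248 bp). *Relb*, a subunit of the non-canonical pathway, was assigned the strongest peak of all 59 genes in both lists, at rank 229 (chr7:19361762-19373873) and rank 247 (chr7:19364535-19373201), and they shared 8667 bp, the whole of the ΔIE peak. Both lay mostly or wholly upstream of the gene. The fl/fl peak reached 11467 bp upstream of a listed start site and 644 bp past it. The ΔIE peak lay 1172 bp upstream of the gene, and a second, of 2495 bp, lay 15750 bp upstream. The covered length of *Relb* was 12112 bp and 11162 bp (log2 ratio -0.12). *Rela*, the p65 subunit, had a 6835-bp peak over its start site in fl/fl and a 3907-bp peak over its 3′ end in ΔIE (log2 ratio -0.81), which did not overlap. *Nfkb1*, which encodes p105 and p50, had 5446 bp and 5280 bp. *Nfkb2*, which encodes p100 and p52, and *Nfkbia* had a peak assigned in ΔIE alone, of 3709 bp and 4410 bp.

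Of the 10 role groups, the JAK, STAT and SOCS genes differed most in summed length, with 57716 bp in fl/fl and 8708 bp in ΔIE. Of these 8 genes, 6 had a peak in fl/fl and 2 in ΔIE. All 4 JAK kinase genes had peaks assigned in fl/fl and none in ΔIE, as had 25.2% of all genes with a peak. Counted by gene span, as given below, the summed lengths of the group were 75759 bp and 22966 bp (log2 ratio -1.72, in place of -2.73), with ΔIE peaks over *Jak1* and *Tyk2* and 1 past the end of *Jak3*. *Jak3*, the kinase paired with the common γ chain of lymphocyte cytokine receptors, had a 12898-bp peak at chr8:72127422-72140319 that covered its start site and 11292 bp of the gene, at rank 438. *Tyk2*, which serves the IL-12, IL-23 and interferon receptors, had 2 peaks of 14329 bp together. *Jak2* had a peak of 5628 bp over its start site, and *Jak1* a peak of 4347 bp in its promoter region. *Stat5a*, a STAT activated by IL-2 and related cytokines, had 15521 bp in fl/fl and 4933 bp in ΔIE (log2 ratio -1.65). Its 10795-bp fl/fl peak, at rank 498, ran 6603 bp past the end of the gene towards the neighbouring *Stat3*. A ΔIE peak of 3226 bp lay wholly inside that peak, 3258 bp past the end of *Stat5a*. It was labelled 3′ UTR, which is a UTR outside the *Stat5a* span that the lists give, and the label names no gene. The lists do not give the span of *Stat3*, so whether either peak reached *Stat3* was not tested. *Socs3*, a feedback inhibitor of JAK signalling, had intergenic peaks of 4993 bp and 3775 bp (log2 ratio -0.40).

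**Figure D2:**
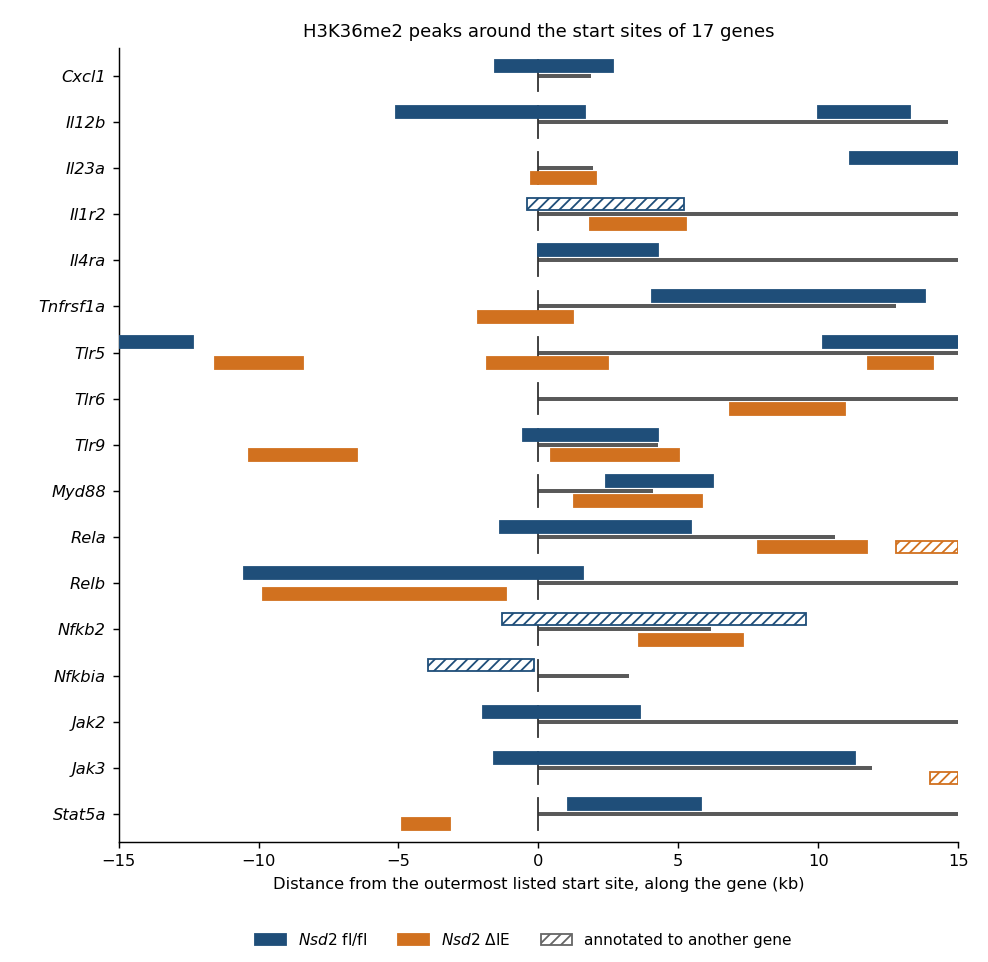
H3K36me2 peaks within 15 kb of the outermost listed start site of 17 genes, in kb along the gene, with 1 library per genotype. Filled bars are peaks annotated to the gene, hatched bars are peaks annotated to another gene, and the grey line is the gene. The filled fl/fl bars cross the start of *Cxcl1*, *Il12b*, *Tlr9*, *Rela*, *Relb*, *Jak2* and *Jak3*, hatched fl/fl bars that of *Il1r2* and *Nfkb2*, and the ΔIE bars that of *Il23a*, *Tnfrsf1a* and *Tlr5*.

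Peaks within 3 kb of a start site made up 12 of the 39 fl/fl peaks (30.8%, 95% Wilson interval 18.6 to 46.4, beside 32.1% of all its peaks). In ΔIE they made up 10 of 45 (22.2%, 12.5 to 36.3, beside 27.9%). The intervals cover counting error only. *Il1r2*, *Myd88*, *Relb* and *Tlr9* had such a peak in both libraries. *Cxcl1*, *Il12b*, *Il4ra*, *Jak1*, *Jak2*, *Jak3*, *Rela* and *Stat5a* had one in fl/fl alone, and *Il23a*, *Tlr5*, *Tlr6*, *Tnfrsf1a* and *Tnfrsf1b* in ΔIE alone. Of these 17 genes, 23.5% had such a peak in both, 47.1% in fl/fl alone and 29.4% in ΔIE alone, beside 24.8%, 37.7% and 37.4% of all 9300 genes with one. The ΔIE promoter peaks of *Il23a*, *Tnfrsf1a*, *Tnfrsf1b* and *Tlr6* had summed signals of 17129 to 21122. These lay below 21783, the lowest value in the fl/fl list, so peaks that weak had no place in that list. Only the ΔIE promoter peak of *Tlr5*, at 31817, passed it among the genes with one in ΔIE alone. The start site itself lay inside 8 fl/fl peaks (20.5%, beside 17.5% of all) and inside 3 ΔIE peaks (6.67%, 2.29 to 17.9, beside 12.2%). No gene was in both sets, where 15.7% of all 5258 genes with a covered start site had it covered in both libraries.

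More than 25 kb from the start site were 21 of the 45 (46.7%, 32.9 to 60.9, beside 26.7% of all ΔIE peaks) and 9 of the 39 fl/fl peaks (23.1%, beside 24.5%). Such peaks were assigned to 10 of the 25 genes with a ΔIE peak and to 5 of the 24 with an fl/fl peak. Of the 21 ΔIE peaks, 14 belonged to 4 genes, *Tlr2*, *Tlr5*, *Il12b* and *Il1r2*, and peaks of 1 gene are not independent of each other. Most of the 21 were also weaker than any fl/fl peak. Only peaks of *Tlr2* (28450 and 22148), *Il12b* (34185 and 23302) and *Cxcl1* (27719) passed the lowest fl/fl signal of 21783. Over the transcript they were assigned to lay 23 of the 39 fl/fl peaks (beside 48.5% of all) and 17 of the 45 ΔIE peaks (37.8%, beside 44.5%). The label named an exon or intron of another gene for 4 fl/fl peaks (10.3%, beside 17.9%) and 7 ΔIE peaks (15.6%, beside 19.5%).

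Few peaks were shared by position. Of the 39 fl/fl peaks, 10 overlapped an ΔIE peak by at least 1 bp (25.6%, 14.6 to 41.1, beside 34.1% of all its peaks). Of the 45 ΔIE peaks, 12 overlapped an fl/fl peak (26.7%, 16.0 to 41.0, beside 30.7%). Of the 18 genes with a peak in both libraries, 8 had peaks of their own that overlapped (44.4%, beside 60.7% of all genes with a peak in both). These were *Il1r1*, *Il4ra*, *Tnfrsf1b*, *Tlr5*, *Tlr9*, *Myd88*, *Relb* and *Stat5a*.

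The nearest-gene annotation gave part of the mark over these genes to their neighbours. Over the gene or within 3 kb of it lay 20 peaks assigned to another gene, at 11 of the 31 genes whose span the lists give. The share over all genes is not given here, so this count is not read as particular to these genes. The 28 genes without an assigned peak have no span in the lists and were not searched in this way. *Jak1* had 3 such fl/fl peaks, of 9244, 6507 and 7285 bp, and 2 in ΔIE, of 6273 and 4945 bp. The 6273-bp peak lay wholly inside the 9244-bp one, near exons 11 and 12 of 25. Counted by gene span extended by 3 kb, *Jak1* was covered over 27383 bp in fl/fl and 11218 bp in ΔIE (log2 ratio -1.29). *Tyk2* was covered over 14329 bp and 8673 bp (log2 ratio -0.72), and *Jak3* over 12898 bp and 3075 bp (log2 ratio -2.07), the latter lying past the gene at *Insl3*. *Jak2* was covered over 5628 bp and 0 bp. *Jak1* and *Tyk2* were thus absent from the ΔIE list although ΔIE peaks annotated to other genes lay over both. The 10281-bp fl/fl peak of *Tyk2* shared 5483 bp with such a peak. The 4347-bp fl/fl peak assigned to *Jak1* and the 4048-bp fl/fl peak of *Tyk2* overlapped no ΔIE peak. All 4 JAK genes had less covered length in ΔIE by either count, beside 43.3% of all genes by assignment and 45.2% by span.

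For several NF-kB genes the count by span differed from the count by assignment. An fl/fl peak of 10862 bp at rank 310 (chr19:46293064-46303925), given to 4833438C02Rik, covered all of *Nfkb2*, so that its span lengths were 10862 bp and 3709 bp (log2 ratio -1.55) where the assigned peaks counted it as more. *Nfkbia* had 3772 bp near its start in fl/fl, given to Gm36634, and none near it in ΔIE. *Nfkb1* had 3 further ΔIE peaks in exons 17, 18 and 21 of 25, which gave 5446 bp and 9954 bp (log2 ratio 0.87). *Rela* changed from less to similar, with 6835 bp and 6918 bp, and *Relb* gave 12112 bp and 8667 bp (log2 ratio -0.48).

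**Figure D3:**
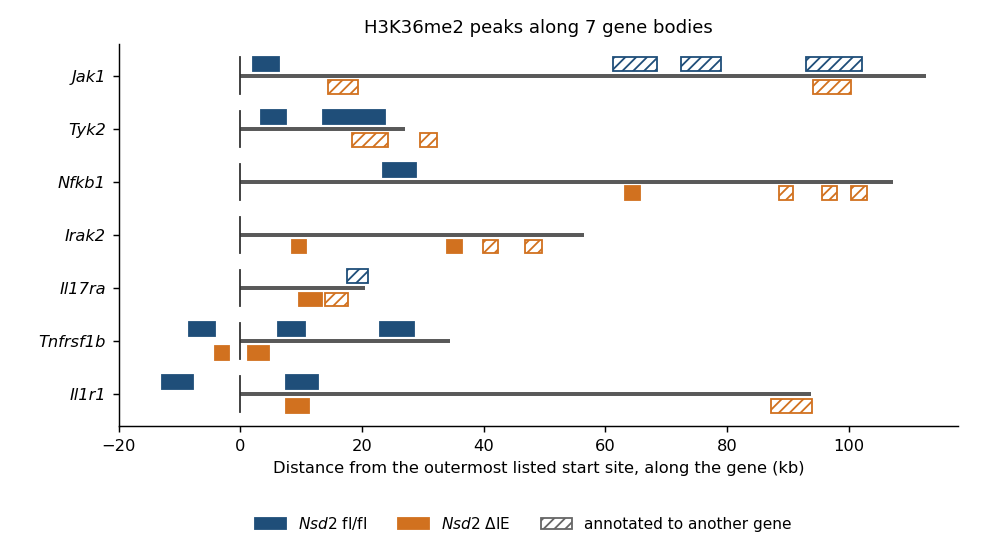
H3K36me2 peaks along 7 genes, in kb from the outermost listed start site, with 1 library per genotype. Filled bars are peaks annotated to the gene, hatched bars are peaks annotated to another gene, and the grey line is the gene. *Jak1* and *Tyk2* carry hatched ΔIE bars although no ΔIE peak was assigned to them, and 3 hatched ΔIE bars lie in the last part of *Nfkb1*.

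Among the receptors, *Il1r1* changed from less to more by span. For this gene the span count added an ΔIE peak given to *Il1rl2* and left out the fl/fl peak 7835 bp away. *Il17ra* had 3471 bp in fl/fl, given to *Tmem121b*, and 7562 bp in ΔIE. *Irak2* had 10081 bp in 4 ΔIE peaks along its exons and none in fl/fl. *Il12b*, *Cxcl1* and *Stat5a* had 10045, 4213 and 15521 bp in fl/fl and none in ΔIE, where both *Stat5a* peaks lay 3162 and 3258 bp outside the gene. *Tlr6* had 4106 bp in ΔIE and none in fl/fl. *Tlr5* was similar, at 6542 and 6662 bp. *Cxcr2*, *Il10*, *Il6*, *Socs3* and *Tlr2* had no peak over or within 3 kb of the gene in either library. By span 14 of the 26 genes with a peak had less, 7 more and 5 similar covered length. Over all genes counted in this way, 45.2% had less and 35.1% more. The class of 16 of the 31 genes was the same by both counts, and the share over all genes is not given here.

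The median width and median signal per bp of the peaks were close to those of all peaks of the same library. The median width was 4850 bp in fl/fl, beside 4643 bp for all its peaks, and 3162 bp in ΔIE, beside 3426 bp. The median of the mean signal per bp was 5.87, beside 6.14, and 6.77, beside 6.32. Peaks of at least 10 kb were listed at *Jak3*, *Relb*, *Stat5a* and *Tyk2* in fl/fl, which is 4 of 39 (10.3%, beside 3.38% of all), and at none of the genes in ΔIE, where 0.693% of all peaks reached that width.

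**Figure D4:**
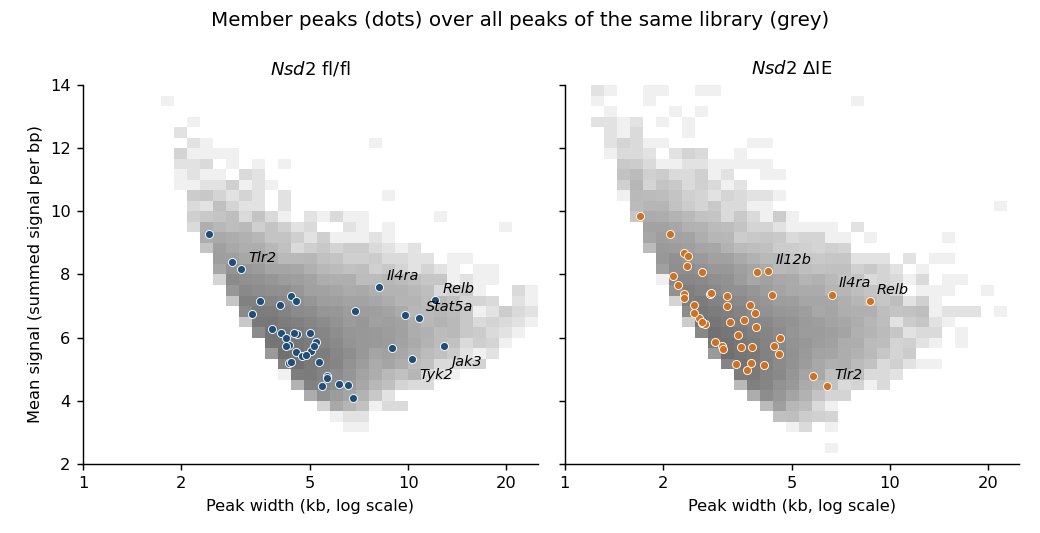
Width in kb on a log scale against mean signal per bp of the 39 fl/fl and 45 ΔIE peaks of the genes (dots), over the density of all peaks of the same library (grey, darker where there are more). The dots lie within the grey field, and the 4 fl/fl dots beyond 10 kb are *Relb*, *Stat5a*, *Tyk2* and *Jak3*.

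The wider pathway, 161 further cytokine, chemokine, TLR, NOD, NF-kB, JAK, STAT and inflammasome genes, had a peak at 68 genes in fl/fl (42.2%, beside 30.9% of protein-coding genes) and 67 in ΔIE (41.6%, beside 32.9%). Less covered length in ΔIE was found at 39 of the 91 genes with a peak (42.9%, beside 43.3% of all genes with a peak) and more at 34 (37.4%, beside 39.7%), and the median log2 ratio of the 44 genes with a peak in both libraries was -0.04. Only these 44 genes have a ratio, which rests on assigned peaks. The lowest ratio was that of *Tnip1*, an inhibitor of NF-kB (24494 bp and 5751 bp, log2 ratio -2.09). It was followed by *Cxcr4*, the receptor for CXCL12 (13257 bp and 3495 bp, -1.92). The ratio of *Tab1*, an adaptor of the kinase TAK1, came next (18253 bp and 6657 bp, -1.46). The highest were those of *Irf4*, a lymphoid transcription factor (3731 bp and 18667 bp, 2.32), *Csf1r*, the macrophage growth factor receptor (3011 bp and 12338 bp, 2.03), and *Il12rb1*, a chain of the IL-12 and IL-23 receptors (2389 bp and 8464 bp, 1.82). The 27 further JAK, STAT and inflammasome genes had 61603 bp in fl/fl and 61140 bp in ΔIE, with 5 less, 6 more and 3 similar.

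Marker genes of the cell types in colon tissue differed between the lists as well, and their part in the results above was not tested. Of 12 epithelial markers, 4 had a peak in fl/fl and 7 in ΔIE (38038 bp and 59906 bp), and *Krt8*, *Krt18*, *Cdx2*, *Car1* and *Slc26a3* had none. Of 12 immune markers, 3 and 4 had a peak (17596 bp and 17008 bp), and the T cell genes *Cd3e* and *Cd4*, the B cell gene *Cd79a* and the myeloid genes *Cd68*, *Adgre1*, *Itgam* and *Lyz2* had none. Of 8 stromal, muscle and endothelial markers, 3 and 4 had a peak (40321 bp and 23808 bp), 2 genes with less in ΔIE and 2 with more. *Myh11* of smooth muscle had 30046 bp in fl/fl and 7771 bp in ΔIE and the endothelial *Cdh5* 5792 and 2720 bp, whereas the endothelial *Pecam1* had 4483 and 10487 bp and the muscle gene *Des* 0 and 2830 bp. The epithelial gene *Vil1*, which encodes villin, had a promoter peak with a mean signal of 64.9 per bp in fl/fl and 76.8 per bp in ΔIE, rank 6 in both lists, where no peak of the 59 genes passed 9.84 per bp. Villin-Cre transgenes carry *Vil1* regulatory sequence, and whether the fl/fl mouse carried one is not given in the sources used here. The part of such a copy in the *Vil1* signal of either library was not tested, so this peak is no clean epithelial marker. Without *Vil1*, the epithelial markers had 24854 bp in fl/fl and 36434 bp in ΔIE.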

How the data were processed

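H3K36me2 CUT&Tag was measured in colon tissue of 1 *Nsd2* fl/fl and 1 *Nsd2* ΔIE library. The authors deposited 1 list of called regions per library, not pooled, with the summed signal of each region and its nearest gene. The submitters' processing notes name Bowtie2, deepTools, SEACR and ChIPseeker without versions, and the build hg38, although the lists hold mouse genes and chromosomes. The mouse build used is not given in the sources used here, so peak coordinates are printed as in the lists. No correction of the signal for depth is stated and the depth is unknown.

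Peak widths were summed per assigned gene in Python 3.11.15 with pandas 2.3.3, numpy 2.4.6 and scipy 1.17.1, and classed by a log2 ratio of 0.5. Overlap meant at least 1 bp. RefSeq tables of GRCm38.p6 gave names, protein-coding genes and promoters. The functions were tested on simulated lists. With 1 library per genotype no test was made. The genes and lists were chosen with earlier results of these data known. Values were given for genes with a peak in both libraries, those with the longest covered length among genes with a peak in 1 library, those with a promoter peak, *Il1b*, *Il6* and *Cxcr2*, and the 3 lowest and 3 highest ratios of the wider pathway. Other genes with a peak, and details of peaks given to neighbours, were added after their values were seen. The alternatives tried were promoter peaks, stronger peaks, equal list lengths, gene spans, other limits and other measures.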

Additional observations from a re-analysis of the deposited data

How the results depend on the processing

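Of 49 values recomputed under alternatives, 33 stayed within their limits and 16 moved. With promoter peaks alone, 12 genes had a peak in fl/fl, 9 in ΔIE and 4 in both, and 8 had less, 5 more and 4 similar covered length (49.2% less and 40.7% more over all genes). With the strongest 50% of each list, 15 genes had a peak in fl/fl and 8 in both, and 4 were similar. Similar genes numbered 13 with a log2 limit of 1, 5 with equal numbers of peaks and 5 by gene span. By the number of peaks 9 genes had less and 13 more, and the order of the classes turned in the same way over all genes (33.2% less, 44.0% more). Restricted to genes marked in both libraries, 8 had less and 2 more (41.8% and 19.0% over all genes). Centring the log2 ratios on the median of all genes gave 12 less and 11 more, beside 14 and 9 (37.5% and 44.0% over all genes, beside 43.3% and 39.7%). With equal numbers of peaks 17 genes had less and 8 more (48.4% and 35.3%). Reciprocal overlap of 50% left 15.6% of the ΔIE peaks shared. The cause of these moves was not tested beyond the smaller lists that some alternatives use. No paired analysis was possible because no genotype had a replicate and no result came from a test. The depth of the libraries is not known, which leaves single peaks without an error.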

Other observations

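Of all 18187 genes with a peak, 43.3% had less covered length in ΔIE, 39.7% more and 16.9% similar. The further chemokine and chemokine receptor genes, 23 in all, had 69049 bp of H3K36me2 peaks in fl/fl and 41980 bp in ΔIE, with 7 genes less (53.8% of those with a peak), 4 more (30.8%) and 2 similar (15.4%). The 54 further cytokine and cytokine receptor genes had 143866 bp and 155781 bp, with 11 less (33.3%), 14 more (42.4%) and 8 similar (24.2%). The 57 further TLR, NOD and NF-kB pathway genes had 196159 bp and 165946 bp, with 16 less (51.6%), 10 more (32.3%) and 5 similar (16.1%).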
